A study of Sus scrofa with 2 samples.

Results

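The intercalated cells of the distal nephron and collecting duct set the acid and base content of the urine. Type A cells secrete protons through a vacuolar H+-ATPase (V-ATPase) on the luminal side and return bicarbonate to the blood through the anion exchanger AE1, whereas type B cells carry the anion exchanger pendrin on the luminal side and secrete bicarbonate. The V-ATPase is a rotary pump with a cytosolic V1 part that splits ATP and a membrane V0 part that moves protons, and several of its subunits exist as a form found in most cells and a form with a narrow distribution. Here 9 of the 31908 genes in the count tables were followed, chosen by their symbols. They were the anion exchangers SLC26A4 (pendrin), SLC4A1 (AE1), SLC4A9 (AE4) and SLC26A7, the V-ATPase subunits ATP6V0D2, ATP6V1C2 and ATP6V1G3, the H+/K+-ATPase alpha subunit ATP12A and the alkali-sensing receptor INSRR. Each symbol stood on 1 row of the tables, which gives the Ensembl identifiers ENSSSCG00000028969 for SLC26A4, ENSSSCG00000017358 for SLC4A1, ENSSSCG00000014363 for SLC4A9, ENSSSCG00000006116 for SLC26A7, ENSSSCG00000006138 for ATP6V0D2, ENSSSCG00000008634 for ATP6V1C2, ENSSSCG00000036270 for ATP6V1G3, ENSSSCG00000022638 for ATP12A and ENSSSCG00000006465 for INSRR.

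The nuclei came from the renal cortex of slaughterhouse pigs (Sus scrofa), and 1 single-nucleus RNA library was analysed for each condition. After a flush, kidneys were kept at 4 °C for about 2 h before normothermic machine perfusion. Cortex of the unperfused library was taken before perfusion, and cortex of the perfused library 120 min after the start of perfusion at 100 mmHg and 37 °C, a setting that raises glomerular pressure. The labels do not say whether both libraries came from the same animal, so animal and perfusion cannot be told apart, and no test between conditions was possible. After the filters, 6389 unperfused and 5421 perfused nuclei remained, with medians of 3755 and 4383 UMIs (unique molecular identifiers, 1 for each RNA molecule counted). Levels are given as CPM, the UMIs of a gene in all nuclei of a class scaled to 1000000 UMIs of that class in the same library. Their 95% intervals, like those of shares and ratios, cover counting error only. Because the counts are not per length, levels were compared between classes and libraries and never between genes.

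Clusters were found with the 9 genes and the other listed acid-base genes left out, and were named from markers outside both lists. Of the 20 clusters, 2 were intercalated. The larger, with 299 unperfused and 134 perfused nuclei, raised 6 of the 7 general intercalated markers (FOXI1, TMEM213, HEPACAM2, STAP1, TFCP2L1 and DMRT2, not CLNK) and 4 of the 5 type A markers (KIT, AQP6, ADGRF5 and NXPH2, not LEF1). No gene of the type A marker list was among its 10 leading genes, whereas PDE1C, listed for type B, was. SLC4A1 and SLC26A7 were also among the 10, but as members they were kept off the marker lists. As a cautious choice the cluster is called KIT-high intercalated (KIT-high IC) here, not type A. Its mean log2 fold over other nuclei was nonetheless 3.20 for the type A markers and 1.36 for the type B markers. The smaller, with 112 and 60 nuclei, raised all 4 type B markers that the files hold (HMX2, TLDC2, SLC35F3 and PDE1C), with TLDC2 among its 10 leading genes, and is called type B-like (IC-B). It also raised 2 of the 5 type A markers. HMX2, TLDC2 and SLC35F3 were higher in IC-B than in KIT-high IC in both libraries, whereas PDE1C was lower. KIT stood at 1518 and 1574 CPM in KIT-high IC and at 475 and 443 CPM in IC-B (unperfused and perfused). AQP6 had 89 and 57 UMIs in the former and none in the latter. DMRT2, from the general list, was also nearly limited to KIT-high IC, with 286 and 207 UMIs there and 3 and 0 in IC-B. PDE1C, although listed for type B, was higher in KIT-high IC, at 4242 and 4829 CPM, than in IC-B, at 1171 and 1449 CPM. The remaining nuclei fell into connecting tubule (CNT), principal cell (PC), distal convoluted tubule (DCT), loop of Henle (LOH), proximal tubule (PT), podocyte (PODO), endothelial (EC), stromal (STROMA), immune (IMM) and cycling classes and 4 unnamed clusters. Both intercalated clusters together held 6.43% of unperfused nuclei (interval 5.84 to 7.06) and 3.58% of perfused nuclei (3.10 to 4.11). The CNT share also differed, at 8.09% and 4.13%, whereas PC nuclei made up 2.75% and 2.79%. Higher shares in the perfused library were those of IMM, at 4.54% and 15.6%, STROMA, at 5.85% and 9.85%, LOH, at 11.7% and 14.9%, and unnamed cluster 11, at 1.13% and 3.30%, and as shares add up to the whole library each bears on the others. The libraries shared 8 of the kept barcodes, 1 of which was an intercalated nucleus.

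The label intercalated held for 8 of the 9 genes, whose highest level over all classes lay in KIT-high IC or IC-B. Of all 17182 genes with at least 50 UMIs, 13.1% were highest there. ATP12A was the exception and is described below. Of all UMIs of each of the 8 genes, between 86.9% (ATP6V0D2) and 96.5% (ATP6V1C2) lay in the 605 intercalated nuclei. At least 4 of the 9 genes had a UMI in 569 of those nuclei (94.0%) and in 15 of the 11205 others (0.134%), 6 of which were LOH nuclei. Within the intercalated nuclei the 8 genes showed 3 patterns. SLC4A1 and SLC26A7 were nearly limited to KIT-high IC, SLC26A4 and INSRR were far higher in IC-B, and SLC4A9 and the 3 V-ATPase subunits were present in both.

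**Figure D1:**
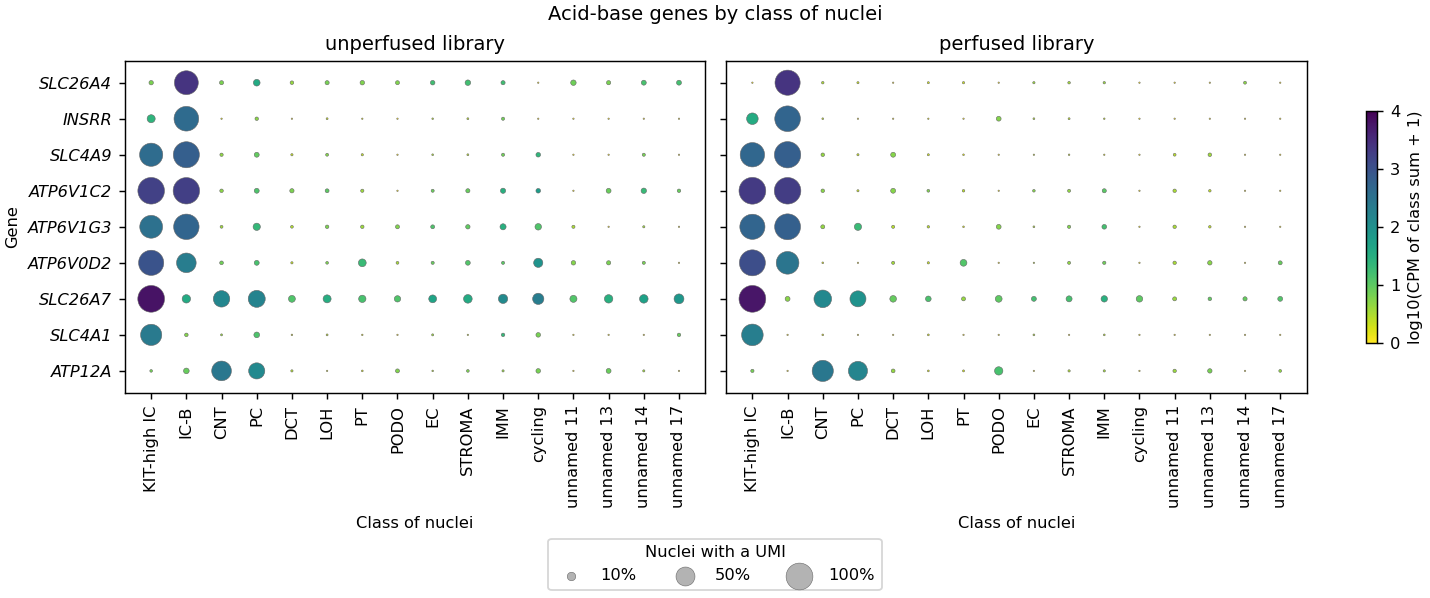
Level and detection of the 9 genes in each class of nuclei, 1 panel per library. Colour gives log10 of CPM + 1 of the class sum and dot area the share of nuclei with at least 1 UMI. The dots are large in 1 or both intercalated columns for 8 genes, and in CNT and PC for ATP12A.

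Pendrin exchanges chloride for bicarbonate on the luminal side of type B cells. SLC26A4 reached 2536 CPM (2417 to 2659) in unperfused and 2516 CPM (2376 to 2661) in perfused IC-B nuclei, where 79.5% and 88.3% of nuclei had a UMI. In KIT-high IC it had 8 UMIs in 299 unperfused nuclei and none in 134 perfused nuclei. With the count of 0 set to 3 UMIs, or 2.98 CPM, the IC-B level was 844-fold higher in the perfused library, without an interval. In the unperfused library it was 475-fold higher, a log2 difference of 8.89 (7.91 to 10.1). The class next in order over both libraries was PC, at 36.6 CPM in the unperfused library from 27 UMIs, 26 of them in 10 nuclei, and 1.22 CPM in the perfused library from 1 UMI. The 4 classes that followed IC-B (PC, EC, unnamed cluster 14 and STROMA) did not differ, each from the next, beyond their intervals, with EC at 10.1 CPM (7.45 to 13.5), next to a PC interval of 11.9 to 26.0 over both libraries.

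Pendrin also varied widely between nuclei of the same cluster. The central 50% of unperfused IC-B nuclei had between 1 and 22 UMIs around a median of 7, and the highest had 123. In the perfused library the median was 10 and the highest 81. ATP6V1C2 in the same unperfused nuclei had a median of 10, with the central 50% between 7 and 13. With every nucleus thinned to 1000 UMIs, the variance of pendrin counts over IC-B nuclei was 3.05 and 3.50 times their mean in the unperfused and perfused libraries, against 1.41 and 1.33 for ATP6V1C2, 1.02 and 1.09 for SLC4A9 and 1.06 and 1.28 for INSRR. For SLC26A7 in KIT-high IC it was 2.63 and 2.32. A ratio of 1 is what counting alone gives, and the ratio tends to grow with the mean count, which was 2.29 and 2.67 for pendrin, 1.85 and 2.22 for ATP6V1C2 and 6.26 and 5.94 for SLC26A7. Over both libraries, 43 IC-B nuclei had at most 1 pendrin UMI. They were shallower than the other 129, with median UMI counts of 5085 and 6912. Their INSRR level was 514 CPM (423 to 618), against 438 CPM (396 to 482) in the others, and their SLC4A9 level was 632 CPM (531 to 746) against 637 CPM (587 to 691). The type B marker TLDC2 was at 536 CPM (444 to 642) in nuclei with little pendrin and 447 CPM (406 to 492) in the others. The type B markers HMX2 and SLC35F3 went the other way. HMX2 was at 109 CPM (69.9 to 162) against 126 CPM (104 to 151). SLC35F3 was at 336 CPM (264 to 422) against 360 CPM (322 to 400). For each of these type B markers the intervals overlapped. The general intercalated marker STAP1 was higher in nuclei with little pendrin, at 959 CPM (834 to 1098) against 696 CPM (644 to 752). KIT was lower in nuclei with little pendrin, at 268 CPM (204 to 346) against 507 CPM (463 to 555), and SLC4A1 had no UMI there. The rule for this split, like those for SLC4A1, SLC4A9 and ATP12A below, was chosen after values had been seen, and the nuclei are not replicates.

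INSRR, a receptor of the insulin receptor family that responds to alkaline pH, was the other gene of the IC-B pattern. It stood at 411 CPM (364 to 462) and 510 CPM (448 to 578) in IC-B, with a UMI in 84.8% and 91.7% of nuclei. In KIT-high IC it stood at 24.0 and 34.8 CPM, with a UMI in 9.03% and 18.7% of nuclei. IC-B exceeded KIT-high IC by 4.10 on the log2 scale (3.59 to 4.64) in the unperfused and 3.87 (3.36 to 4.43) in the perfused library. The remaining classes held at most 2.45 CPM over both libraries. Its relative INSR, the insulin receptor, had the opposite order, at 469 and 509 CPM in KIT-high IC and 57.9 and 49.7 CPM in IC-B, which is −3.02 (−3.52 to −2.55) and −3.36 (−4.01 to −2.77) on the log2 scale. IGF1R, the receptor of insulin-like growth factor 1, was −0.50 in both libraries for IC-B over KIT-high IC.

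SLC4A1, which encodes the basolateral bicarbonate exchanger of type A cells, stood at 235 CPM (211 to 261) in unperfused and 201 CPM (174 to 230) in perfused KIT-high IC nuclei. A UMI was found in 62.5% and 64.9% of these nuclei, and none had more than 8. In IC-B it had 3 UMIs in 2 of 112 unperfused nuclei and none in 60 perfused nuclei. Over both libraries the next class was IMM, at 5.94 CPM (3.46 to 9.51), which did not differ beyond the interval from PC at 5.78 CPM. The 159 KIT-high IC nuclei without a SLC4A1 UMI were shallower than the 274 with at least 1, with medians of 4675 and 5730 UMIs. They had 6054 CPM of SLC26A7 against 6356, 1460 CPM of KIT against 1579 and 195 CPM of DMRT2 against 198. Over both libraries, their ATP6V1C2 level was lower beyond the intervals, at 1677 CPM (1589 to 1769) against 1932 CPM (1867 to 1999). The difference lay in the unperfused library, at 1440 CPM (1336 to 1551) against 1836 CPM (1753 to 1922). In the perfused library the intervals overlapped, at 2045 CPM (1890 to 2209) against 2072 CPM (1966 to 2183). ATP6V0A4 was lower beyond the intervals in each library, at 1728 CPM (1639 to 1822) against 2026 CPM (1959 to 2094) over both. At 1000 UMIs per nucleus the variance of SLC4A1 was 1.05 and 1.01 times its mean, close to counting alone.

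SLC26A7, a chloride and anion transporter of the basolateral membrane of intercalated cells, had 17228 UMIs over both libraries. It stood at 6409 CPM (6282 to 6539) and 6035 CPM (5884 to 6189) in KIT-high IC and was found in 298 of 299 and 134 of 134 nuclei. In IC-B it had 24 UMIs in 11 of 112 unperfused nuclei, 13 of them in 1 nucleus, and 2 UMIs in 60 perfused nuclei. SLC26A7 was also found in CNT, at 144 and 133 CPM with a UMI in 37.7% and 43.3% of nuclei, and in PC, at 160 and 92.8 CPM with a UMI in 40.3% and 35.8%. In KIT-high IC, SLC26A7 had 3.76 and 2.92 UMIs for each ATP6V1C2 UMI. In PT, LOH, DCT, EC and STROMA nuclei together the proportion was 4.42 and 2.69. In CNT it was 35.8 and 31.5, from 9 and 6 UMIs of ATP6V1C2. The part of free RNA in the CNT and PC levels was not tested. At 1000 UMIs per nucleus, 11.2% and 12.6% of CNT nuclei and 10.2% and 10.7% of PC nuclei had a SLC26A7 UMI, against 1.36% and 0.595% of PT nuclei.

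**Figure D2:**
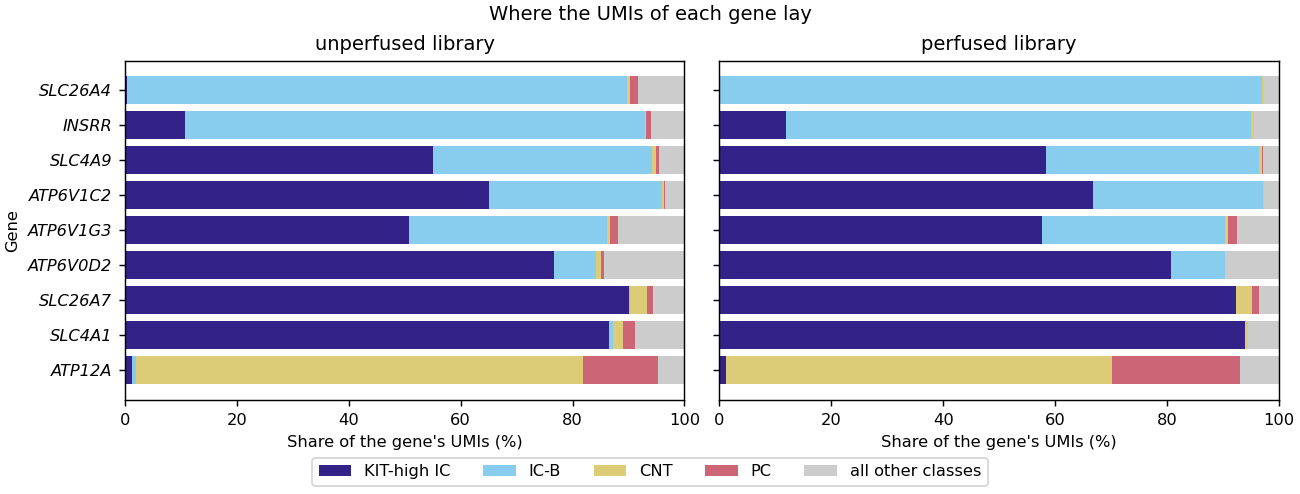
Share of the UMIs of each gene, in percent of all kept nuclei of a library, that lay in KIT-high IC, IC-B, CNT, PC and all other classes. Intercalated nuclei held 84.3% to 97.1% of the UMIs of 8 genes in a library, and 1.93% and 1.12% of those of ATP12A.

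Pendrin and AE1 were rarely found in the same nucleus. In the unperfused library 7 of 411 intercalated nuclei (1.70%, 0.687 to 3.48) had UMIs of both, although 97 had SLC26A4 and 189 had SLC4A1. Of the 7, 5 were KIT-high IC nuclei with exactly 1 pendrin UMI, and 2 were IC-B nuclei with 9 and 11 pendrin UMIs. In the perfused library 53 nuclei had SLC26A4, 87 had SLC4A1 and none of 194 had both, which allows a share of up to 1.88% by the exact interval. Among barcodes that were called doublets and left out, 2 of 641 unperfused and none of 489 perfused had both genes.

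**Figure D3:**
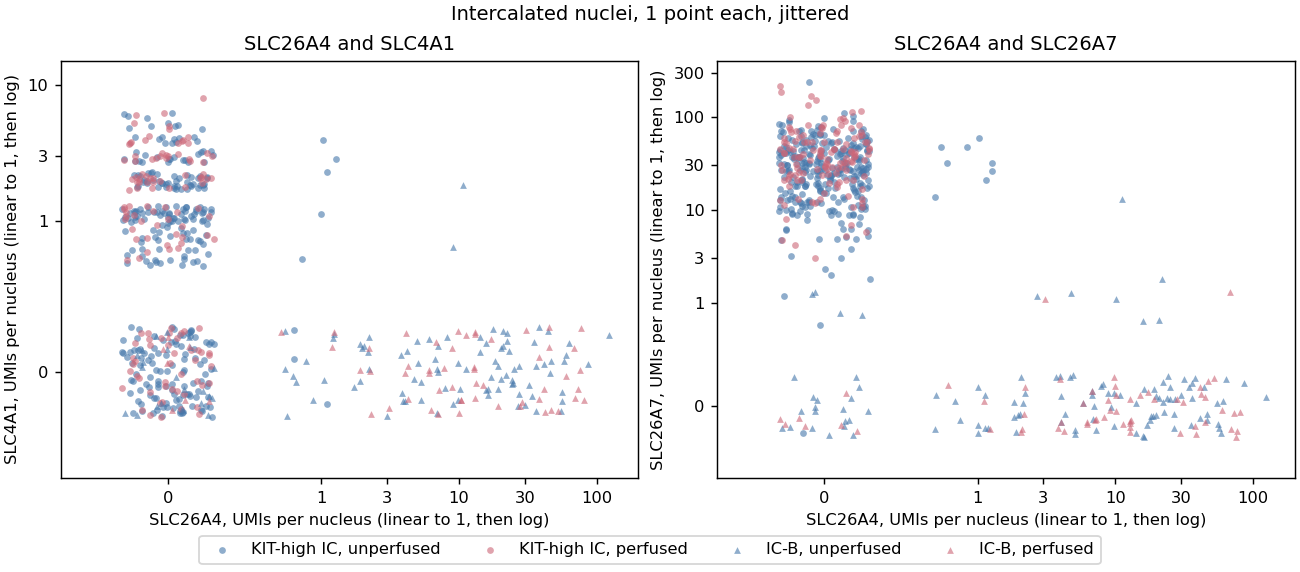
UMIs of SLC26A4 against SLC4A1 (left) and SLC26A7 (right) in each intercalated nucleus, on axes that are linear up to 1 and logarithmic above, with a small random offset. KIT-high IC nuclei (circles) lie along the vertical axis and IC-B nuclei (triangles) along the horizontal axis in both libraries, apart from a few points between them.

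SLC4A9, whose product AE4 is a basolateral anion exchanger described mainly in type B cells, was found in both clusters. It stood at 629 CPM (571 to 692) and 647 CPM (577 to 722) in IC-B and at 398 CPM (367 to 431) and 477 CPM (435 to 522) in KIT-high IC. IC-B exceeded KIT-high IC by 0.66 on the log2 scale (0.48 to 0.84) in the unperfused and 0.44 (0.23 to 0.65) in the perfused library. A UMI was found in 94.6% and 96.7% of IC-B nuclei and in 74.9% and 82.8% of KIT-high IC nuclei. Both SLC4A9 and SLC4A1 were detected in 221 of 433 KIT-high IC nuclei. The 98 nuclei without SLC4A9 were shallower than the 335 with it, with medians of 4053 and 5581 UMIs. Their SLC4A1 level was 229 CPM (188 to 276) against 219 CPM (200 to 241). Other genes differed beyond their intervals. ATP6V0D2 was at 777 CPM (700 to 860) against 1076 CPM (1031 to 1122), and ATP6V1C2 at 1639 CPM (1527 to 1758) against 1900 CPM (1841 to 1961). DMRT2 was lower in nuclei without SLC4A9, at 140 against 211 CPM, and STAP1 higher, at 646 against 458 CPM. Outside the intercalated clusters SLC4A9 was highest in unperfused cycling nuclei, at 22.9 CPM (6.24 to 58.7), where all 4 UMIs lay in 1 nucleus. That nucleus had UMIs of 6 of the 9 genes, including 31 of SLC26A7 and none of SLC26A4.

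The 3 V-ATPase subunits were present in both intercalated clusters in different proportions. ATP6V1C2, a form of the C subunit that couples V1 to V0, did not differ beyond the intervals between IC-B, at 1801 CPM (1701 to 1906) and 1963 CPM (1840 to 2092), and KIT-high IC, at 1707 CPM (1641 to 1774) and 2064 CPM (1976 to 2155). It was found in at least 97.3% of nuclei of each cluster and library. ATP6V1G3, a form of the G subunit of the stator stalk, was higher in IC-B, at 518 and 607 CPM against 337 and 514 CPM, a log2 difference of 0.62 (0.42 to 0.82) and 0.24 (0.03 to 0.45). ATP6V0D2, a form of the d subunit that joins the rotor to V1, was lower in IC-B, at 209 and 282 CPM against 950 and 1120 CPM, a log2 difference of −2.18 (−2.44 to −1.93) and −1.99 (−2.26 to −1.73). Its level outside intercalated nuclei was highest in the cycling class, at 52.4 CPM, where 11 of the 15 UMIs lay in the nucleus named above, followed by PT, at 15.1 CPM (13.4 to 17.0).

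The narrow forms of these subunits stood apart from their widely expressed relatives. Intercalated nuclei exceeded all other nuclei by 8.10 and 9.18 on the log2 scale for ATP6V1C2 and by 0.49 and 0.72 for ATP6V1C1. For ATP6V1G3 the log2 difference was 6.13 and 7.32, and for ATP6V1G1 it was 0.11 and −0.03. For ATP6V0D2 it was 5.92 and 7.33, and for ATP6V0D1 0.69 and 0.51. Of the other listed subunits, ATP6V0A4, the renal form of the a subunit of V0, came next at 4.06 and 4.18. ATP6V0A1, another a subunit, was on the opposite side at −3.10 and −2.67, and its highest level was in PT. ATP6V1A, the catalytic subunit, and ATP6V1H, a regulator of V1, were at 2.49 and 2.65, and at 2.41 and 2.41. ATP6V1B1, the renal form of the B subunit, was less limited to these nuclei, with 518 and 607 CPM in KIT-high IC, 567 and 497 CPM in IC-B, 385 and 364 CPM in CNT, 301 and 333 CPM in DCT and 259 and 249 CPM in PT. In all, 6 of 10 V1 genes, 2 of 6 V0 genes and 4 of 6 accessory or assembly genes in the files were highest in an intercalated cluster, beside 13.1% of all genes. The assembly gene DMXL1 was at 1670 and 1563 CPM in KIT-high IC and 2143 and 2309 CPM in IC-B, and NCOA7 was more than 2-fold higher in IC-B than in KIT-high IC in both libraries, at 1.09 and 1.10 on the log2 scale.

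**Figure D4:**
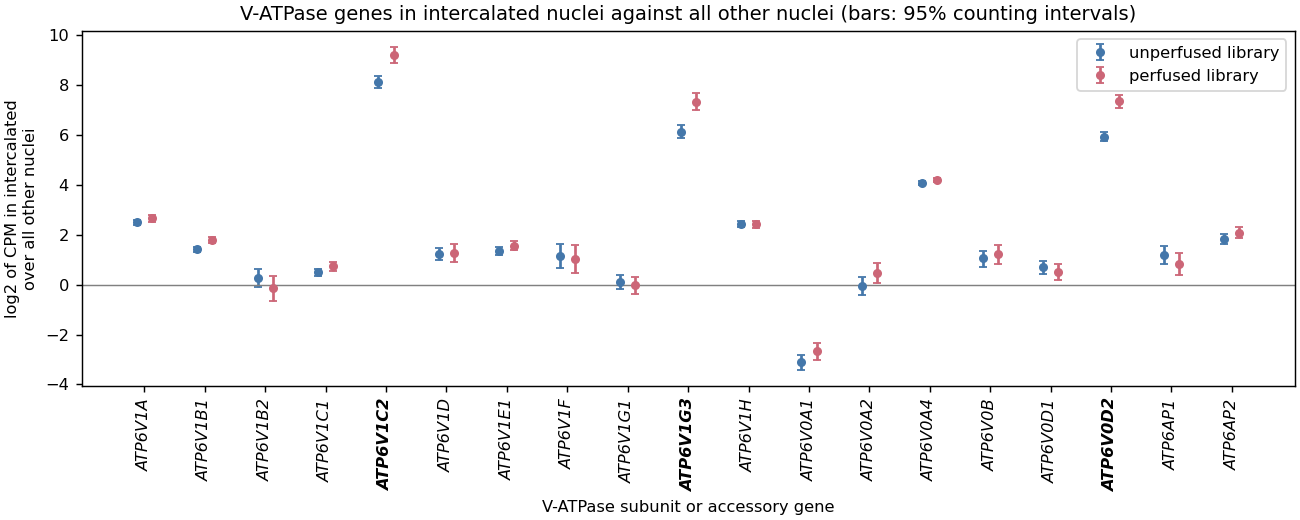
Log2 of CPM in intercalated nuclei over all other nuclei for V-ATPase subunits and accessory genes, with 95% counting intervals, in each library. ATP6V1C2, ATP6V1G3 and ATP6V0D2 (bold) lie between 5.92 and 9.18, above every other gene plotted, and ATP6V0A1 lies below 0.

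ATP12A, an H+/K+-ATPase alpha subunit that exchanges potassium for protons, went against the intercalated label in these nuclei. Its highest level was in CNT, at 259 CPM (239 to 281) and 260 CPM (234 to 288), with a UMI in 54.0% and 62.5% of nuclei. PC followed at 131 CPM (106 to 160) and 150 CPM (125 to 179), with a UMI in 36.4% and 51.0% of nuclei. CNT and PC held 93.4% of the ATP12A UMIs of the unperfused and 92.0% of those of the perfused library. KIT-high IC stood at 6.01 and 5.96 CPM. Of its 9 unperfused UMIs, 7 lay in 1 nucleus, and of its 6 perfused UMIs, 5 lay in 1 nucleus. IC-B had 5 UMIs in 112 unperfused nuclei and none in 60 perfused nuclei, where a count set to 3 UMIs would be 6.22 CPM. CNT was highest and PC next in both libraries. Of the 741 CNT nuclei, the 419 with ATP12A had 136 CPM of SLC26A7 and the 322 without it had 144 CPM, with intervals that overlapped. The related gastric pump genes ATP4A and ATP4B had 2 UMIs and none in all nuclei.

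For each member, the genes with the most similar pattern were taken from log2(CPM + 5) over the 14 classes with at least 50 nuclei in each library, with each library as a separate point, 28 in all. These points share libraries, and a few intercalated points carry most of each correlation. The genes closest to SLC26A4 were HMX2 (r = 0.97), TLDC2 (0.95) and NYAP2 (0.95), the first pair of which are markers used to name IC-B. Among the genes closest to INSRR were WNT6 (0.95) and STEAP4 (0.94). ZNF385C, LRTM1 and FOXI1 were the 3 closest genes for each of SLC4A9, ATP6V1C2 and ATP6V1G3, with r between 0.94 and 0.99, and FOXI1, a forkhead factor of intercalated cells, was also among those closest to ATP6V0D2 (0.96), after SLC31A2 (0.96) and before SNAP91 (0.96). AQP6 and DMRT2 were among the closest to both SLC4A1 (0.94 and 0.93) and SLC26A7 (0.87 and 0.90). FOXI1, AQP6 and DMRT2 are likewise markers from the lists used to name the intercalated clusters. The other close genes were C9orf152 (0.88) for SLC4A1 and CCR8 (0.87) for SLC26A7. ATP12A was closest to SCNN1B (0.94), PTGFR (0.94) and SCNN1G (0.94), of which SCNN1B and SCNN1G encode subunits of the epithelial sodium channel of CNT and PC.

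No member with at least 50 UMIs differed by 2-fold or more between the libraries in either intercalated cluster. In KIT-high IC this was 0 of 7 members in each direction, beside 0.699% of 7151 genes that were 2-fold or more higher and 3.73% that were 2-fold or more lower in the perfused library. In IC-B it was 0 of 6 members, beside 0.686% of 4522 genes higher and 2.45% lower. The median log2 ratio of perfused over unperfused CPM was 0.26 for the members and −0.02 for all genes in KIT-high IC, and 0.18 and 0.01 in IC-B. With shares of this size in all genes, a count of 0 among 6 or 7 members is near the background.

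The 3 V-ATPase subunits were at higher levels in the perfused library in both clusters. In KIT-high IC the log2 ratio was 0.61 (0.43 to 0.79) for ATP6V1G3, 0.27 (0.19 to 0.36) for ATP6V1C2 and 0.24 (0.12 to 0.35) for ATP6V0D2. In IC-B the log2 ratio was 0.43 (0.08 to 0.78) for ATP6V0D2, 0.23 (0.00 to 0.46) for ATP6V1G3 and 0.12 (−0.00 to 0.25) for ATP6V1C2, whose interval included 0. When nuclei were instead gated by markers, without clusters, ATP6V0D2 was at −0.20 and ATP6V1C2 at 0.80 in those gated as IC-B. Of all gated nuclei, only 41.8% of unperfused and 33.1% of perfused ones lay in the intercalated clusters. ATP6V0A4, the a subunit that accompanies the 3 subunits, had log2 ratios of 0.25 (0.16 to 0.33) and 0.19 (0.05 to 0.33) in the KIT-high IC and IC-B clusters. Of the 5 listed V0 genes with at least 50 UMIs in KIT-high IC, ATP6V0A4 included, 4 ratios were above 0 and 1 below. Of 3 such genes in IC-B, 1 was above 0 and 2 below. ATP6V0D1, the relative of ATP6V0D2, was at −0.93 (−1.56 to −0.33) in IC-B and 0.22 (−0.30 to 0.74) in KIT-high IC. Among the 9 other V1 genes with at least 50 UMIs in KIT-high IC, 4 ratios were above 0 and 5 below, with a median of −0.11. In IC-B, 2 of 7 were above 0 and 5 below, with a median of −0.19, and ATP6V1A, at 614 and 477 CPM there, had a log2 ratio of −0.37 (−0.60 to −0.13).

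The anion exchangers had ratios on both sides of 0. SLC26A4 had a log2 ratio of −0.01 (−0.12 to 0.10) in IC-B. It was at 0.76 in nuclei gated as IC-B, in a gate whose nuclei lay mostly outside the intercalated clusters. SLC26A7 was at −0.09 (−0.13 to −0.04) in KIT-high IC, an interval that is narrow because of its many UMIs. Over the alternatives in processing, its ratio in KIT-high IC ran from −0.12 to −0.02. SLC4A1 was at −0.23 (−0.48 to 0.03) there. SLC4A9 was at a higher level in the perfused library in KIT-high IC, at 0.26 (0.09 to 0.44), and at 0.04 (−0.18 to 0.25) in IC-B. With every nucleus weighed equally, in place of the sum over nuclei, SLC4A9 was at 0.20 and SLC4A1 at −0.19 in KIT-high IC. That alternative was chosen after seeing the data. Neither ratio kept its side of 0 in random draws to an equal number of UMIs per nucleus. In these draws SLC4A9 in KIT-high IC was at −0.00017 and −0.02, and SLC4A1 at 0.04 and 0.60. A draw left 32 or 43 perfused SLC4A1 UMIs. INSRR was at 0.31 (0.06 to 0.56) in IC-B and 0.53 (−0.18 to 1.25) in KIT-high IC. In CNT, ATP12A was at 0.01 (−0.19 to 0.20) and SLC26A7 at −0.11 (−0.38 to 0.15). In PC the log2 ratio of ATP12A was 0.19 (−0.20 to 0.59), whereas that of SLC26A7 was −0.78 (−1.22 to −0.36).

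**Figure D5:**
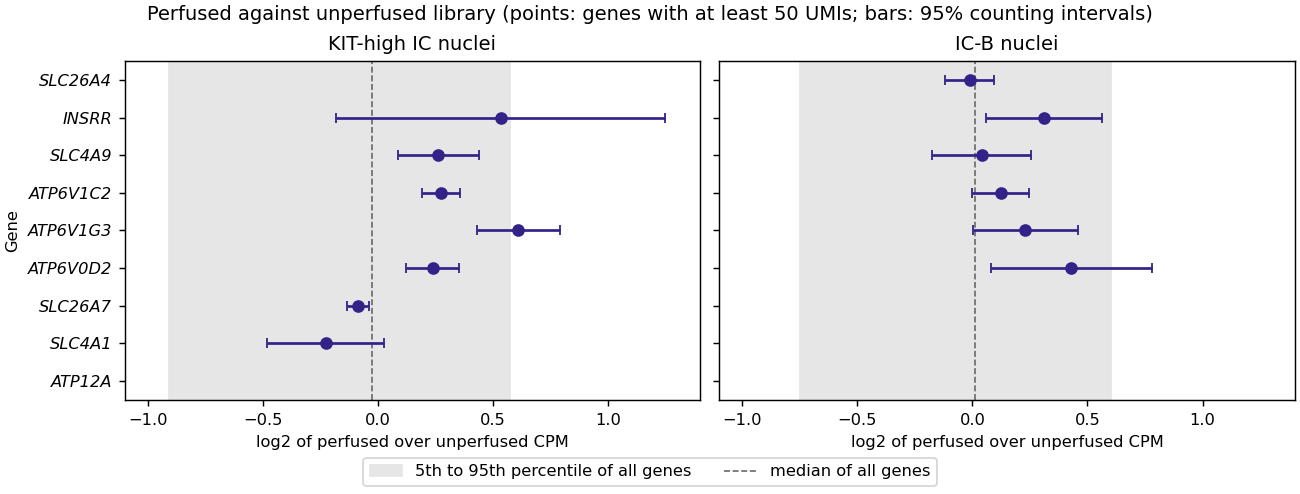
Log2 ratio of perfused over unperfused CPM for members with at least 50 UMIs in KIT-high IC (left) and IC-B (right), with 95% counting intervals. The grey band spans the 5th to 95th percentiles of all genes with at least 50 UMIs, and every member but ATP6V1G3 in KIT-high IC, at 0.61, lies within it.

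Member UMIs in nuclei of unrelated classes moved with the library. In PT, LOH, DCT, EC and STROMA together, unperfused and perfused levels were 22.5 and 8.54 CPM for SLC26A7, 7.12 and 1.37 CPM for SLC26A4 and 5.10 and 3.17 CPM for ATP6V1C2. The part of this in the values above was not tested. With free RNA subtracted, estimated from LRP2, CUBN, SLC12A1 and UMOD, the log2 ratios in KIT-high IC and IC-B kept the sides of 0 given above. The estimated share of free RNA was 8.30% in unperfused and 11.8% in perfused KIT-high IC, and 5.10% and 5.78% in IC-B. This estimate was thus higher in the perfused library, whereas the levels in unrelated classes were lower there. The perfused intercalated nuclei were also deeper, with a median of 6980 UMIs against 5097.

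Of the 72 other acid-base genes listed, 66 were in the files and 61 had at least 50 UMIs, and 19 of these were highest in an intercalated cluster, beside 13.1% of all genes. Of the 61, 18 were 2-fold or more higher in intercalated than in all other nuclei in both libraries and 15 were 2-fold or more lower, beside 7.25% and 14.9% of all genes. Other than the V-ATPase genes, those highest in an intercalated cluster were the carbonic anhydrases CA2 and CA12 and the ammonia channel genes RHBG and RHAG. With them were BSND, the accessory subunit of basolateral chloride channels, SLC26A3 with 57 UMIs in all, and SCTR, the secretin receptor. None of the 8 other SLC4 genes was highest there. Of the 8, 4 were 2-fold or more lower in intercalated than in all other nuclei in both libraries. SLC4A4, the bicarbonate cotransporter of PT, was among them, at −5.03 and −4.54 on the log2 scale. CA12 stood at 2968 and 3533 CPM in IC-B and at 1719 and 1383 CPM in KIT-high IC. RHBG was higher in KIT-high IC, at 455 and 407 CPM against 243 and 288 CPM. RHCG was highest in CNT, at 351 and 554 CPM, although intercalated nuclei exceeded all other nuclei by 2.47 and 2.53 on the log2 scale.

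Between the libraries, 1 of the 39 listed genes with at least 50 UMIs in KIT-high IC was 2-fold or more higher and 1 was 2-fold or more lower. These were SLC4A7, a sodium bicarbonate cotransporter, with 22 and 42 UMIs and a log2 ratio of 1.51 (0.73 to 2.32), and BSND, with 61 and 18 UMIs and −1.19 (−2.03 to −0.41). In IC-B, 1 of 27 was higher and none lower, the kinase gene PTK2B with 22 and 32 UMIs and 1.02 (0.19 to 1.88). SLC4A7 and PTK2B were also higher in the perfused library in all nuclei outside these clusters, at 87.3 and 154 CPM and at 29.7 and 58.3 CPM. BSND was at 2.90 and 3.71 CPM there. Such pooled levels also depend on the shares of the classes, which differed between the libraries. SLC4A7 was highest in LOH and PTK2B in unnamed cluster 11, both with higher shares in the perfused library. The part of free RNA in these ratios was not tested. The backgrounds are the percentages of all genes given above for each cluster and direction. FOXI1, which was among the 3 closest genes for several members, stood at 122 CPM in unperfused and 57.7 CPM in perfused KIT-high IC nuclei. This is a log2 ratio of −1.08 (−1.54 to −0.65), and the ratio in IC-B was −0.48 (−1.30 to 0.29). Other general intercalated markers with at least 50 UMIs in KIT-high IC lay on both sides of 0. TMEM213 was at −0.64 (−1.07 to −0.22), whereas TFCP2L1 was at 0.20 (0.09 to 0.30). HEPACAM2, STAP1 and DMRT2 were at 0.10, 0.05 and 0.11, with intervals that included 0.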

How the data were processed

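Per the study's methods, the authors aligned reads from 10x Genomics 3′ libraries of nuclei with Cell Ranger 5.0.1 to the Ensembl release 103 pig genome, introns included, and deposited the UMI counts of each gene in each barcode, with 34415254 unperfused and 35525592 perfused UMIs. The counts precede the study's filters, and its removal of ambient RNA was not repeated. Nuclei needed 500 to 6000 genes and no more than 7% of UMIs from mitochondrial genes. Scrublet (scanpy 1.11.5) then marked 641 and 489 doublets, which were left out. Seurat 5.3.0 integrated the libraries (2000 variable genes, 15 of 30 components, resolution 0.5). A cluster took the name of the marker list with the highest mean log2 fold of CPM (offset 5) over other nuclei. At least 3 markers needed a log2 fold over 1 in at least 10% of nuclei. The intercalated cluster whose highest list was that of type A was called KIT-high IC, as described above.

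UMIs were summed per class and library. Intervals are exact (Poisson, binomial and, for ratios, conditional binomial) at 95%, a count of 0 was set to 3, and ratios between libraries needed 50 UMIs in a cluster. Nuclei are not replicates, so no p-value was computed. The ratio and its interval were checked on simulated Poisson counts only. These lack the further spread between nuclei described for SLC26A4 and SLC26A7, so the check says nothing about intervals under such spread. The alternatives changed 1 choice at a time (clustering, doublets, free RNA, scaling with edgeR 4.0.16 and DESeq2 1.42.0, depth, minimum UMIs). Genes named are the 9 members, the 3 genes most like each, intercalated markers and listed acid-base genes, of which 1 is not reported here. The members and lists were chosen with earlier results of these data known. Protein and promoter sequences and chromosome positions were not used here.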

Additional observations from a re-analysis of the deposited data

Results flagged for a closer look

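The listed genes CA12 and RHCG had ratios of perfused over unperfused CPM on opposite sides of 0 in the 2 intercalated clusters, with counting intervals that left out 0 in each. The log2 ratio of CA12, a membrane carbonic anhydrase, was −0.31 (−0.41 to −0.22) in KIT-high IC and 0.25 (0.16 to 0.35) in IC-B. The log2 ratio of RHCG, an ammonia channel, was −0.36 (−0.58 to −0.14) in KIT-high IC, from 499 and 262 UMIs, and 0.84 (0.33 to 1.34) in IC-B, from 61 and 78 UMIs. In CNT, where RHCG was highest, its unperfused and perfused levels were 351 and 554 CPM. In KIT-high IC, 24.2% of all genes with at least 50 UMIs had a lower ratio than CA12 and 21.7% a lower ratio than RHCG. In IC-B these shares were 75.7% and 98.4%. The share of all genes with ratios on opposite sides of 0 by the same rule is not given. The differences between the clusters were not tested, since each condition has 1 library. No member had intervals that left out 0 on opposite sides in the 2 clusters.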

How the results depend on the processing

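No paired analysis was possible because each condition has 1 library, and no replicate could be left out. The 2 intercalated clusters held the same numbers of nuclei at resolutions of 0.3 and 1.0, with the members allowed among the variable genes and without integration. Of 153 ratios of single members over the alternatives, 145 had the sign of the value reported. This count is not independent support. Several alternatives held the same numbers of nuclei in the clusters or shifted all ratios alike, so few signs could change under them. In a random draw of 1000 UMIs per nucleus, SLC4A9 in KIT-high IC was at −0.00017, SLC4A1 at 0.04, SLC26A4 in IC-B at −0.25 and the median log2 ratio in KIT-high IC at 0.12. In another draw, SLC4A9 was at −0.02 in KIT-high IC and −0.51 in IC-B, SLC4A1 at 0.60, SLC26A4 at 0.22 and ATP6V1G3 in IC-B at −0.09. A draw left 32 or 43 perfused SLC4A1 UMIs. With nuclei weighed equally and no draw, an alternative chosen after seeing the data, SLC4A9 was at 0.20 and −0.04, SLC4A1 at −0.19, SLC26A4 at 0.07 and ATP6V1G3 at 0.22. The share of unperfused nuclei with SLC26A4 and SLC4A1 was 0% after thinning, where 56 of 409 nuclei still had SLC4A1. The cause was not tested. In nuclei gated by markers without clusters, ATP6V0D2 in IC-B was at −0.20, ATP6V1C2 at 0.80, SLC26A4 at 0.76, 4 members were highest in an intercalated class, the intercalated share was 3.52% and 2.51%, and none had SLC26A4 with SLC4A1. Of the gated nuclei, 41.8% and 33.1% lay in the intercalated clusters, and the gate took in 22.9% and 23.2% of the nuclei of those clusters. The gate's split into types, by HMX2 and TLDC2, was chosen after seeing the data. There 1 member passed 2-fold in KIT-high IC, SLC26A4, and the median log2 ratios were 0.081 and 0.38 in KIT-high IC and IC-B. With a minimum of 20 UMIs, or of 1 UMI in each library, 1 member passed 2-fold in IC-B, SLC26A7 with 24 and 2 UMIs. TMM and DESeq2 factors raised all log2 ratios by 0.06 to 0.07, which takes SLC26A4 in IC-B, at −0.01, above 0. The 112 and 60 IC-B nuclei limit the precision of ratios there.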
